A study of Bos taurus with 12 samples.

Results

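E-selectin (SELE), P-selectin (SELP), vascular cell adhesion molecule 1 (VCAM1) and intercellular adhesion molecule 1 (ICAM1) are the cell surface proteins with which activated blood vessels catch passing leukocytes. Their transcripts were followed through the fat of steers of the Japanese Black breed (JB) and the Holstein breed (HS), kept on an energy-rich diet. Of the 13292 probe sets that carried exactly 1 gene symbol and were no array controls, 4 named one of these genes, with 1 probe set for each gene. All 4 passed the filter on dim probe sets, which kept 16811 of 24016. The genes were selected on readings of these same samples: SELE had been noticed for its breed difference in subcutaneous fat, and the others were added because they act in the same process. In that comparison SELE had the largest absolute log2 difference of the 16811 probe sets, and values from it are given below as a description with no test.

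The Affymetrix bovine array was hybridized with RNA of 12 samples in 4 groups of 3. These were intramuscular fat (IMF, the marbling fat inside a muscle) of JB, IMF of HS, subcutaneous fat (SCF, the fat under the skin) of JB, and SCF of HS, all from animals on the same energy-rich feeding. IMF samples were numbered 1 to 3 and SCF samples 4 to 6 within each breed. The labels give neither age nor muscle, nor whether samples came from separate animals or IMF and SCF from the same ones, so the p-values reflect only how far these samples scattered, some of which could be technical. Median array signals were 77.6 to 88.3 in 11 samples and 58.8 in HS IMF 3. HS IMF 3 and, within SCF, HS SCF 4 correlated least with the other samples of their own groups, at 0.86 and 0.92. The 6 adipocyte markers measured were above 0 in every sample, with summed signals of 17747 to 39219 in IMF, against 35609 to 52202 in SCF. Skeletal muscle markers were far brighter in IMF than in SCF, with summed signals of 44498 to 87780 against 4871 to 23957. HS SCF 5 stood apart within SCF, with the highest of these muscle sums, 23957, where the other SCF samples had at most 11044. Its GAPDH control probes, whose ratio of 3' to 5' signal is a sign of RNA quality and goes up with degradation, gave 4.06, where the other 11 samples had 1.19 to 2.40.

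In blood vessels of human and mouse, leukocyte capture runs in steps. Selectins hold sugar chains on leukocytes loosely, so that the cells roll along the wall, and members of the immunoglobulin family then bind leukocyte integrins firmly and stop them. SELE is made by endothelial cells after they meet cytokines such as TNF or interleukin 1. SELP is stored ready-made in granules of endothelial cells and platelets, ICAM1 binds the beta-2 integrins, and VCAM1 binds the integrin known as VLA-4. ICAM1 and VCAM1 are not restricted to endothelium, since macrophages and stromal cells can also make them. In the RefSeq annotation of the cattle assembly ARS-UCD2.0, ICAM1 is followed by its relatives ICAM4 and ICAM5.

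SELE separated the samples into bright and dim ones. Its signal was 35.3, 39.9 and 81.8 in JB IMF and 36.9, 147 and 22.0 in HS IMF. In SCF it was 4492, 7051 and 8802 in JB, against 1697, 45.2 and 28.4 in HS. Thus all JB SCF samples and HS SCF 4 were bright, while HS SCF 5 and 6 lay within the range of IMF. HS SCF 5 was also the sample with the GAPDH ratio of 4.06 and the most muscle signal in SCF, whose part in its SELE signal was not tested, whereas HS SCF 6, as dim, had a ratio of 1.91 and the least muscle signal in SCF. The 4 bright samples were above 1000 and the other 8 below 150, with an 11.6-fold gap between the dimmest bright sample and the brightest dim one. Within HS SCF, sample 4 was 37.5-fold brighter than sample 5 and 59.7-fold brighter than sample 6.

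On the normalized scale of log2(signal + 16), the SELE mean was 5.99 ± 0.48 in JB IMF, 6.20 ± 1.13 in HS IMF, 12.52 ± 0.52 in JB SCF and 7.37 ± 2.96 in HS SCF (SD, n = 3 each). JB SCF thus stood first and HS SCF second, but the spread of HS SCF covered both IMF groups, whose means did not differ beyond their spread. The HS SCF group held 83.1% of the within-group sum of squares of SELE, and HS SCF 4 alone held 55.1%. The model shares a single spread estimate over the 4 groups, which for this gene were unequal.

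**Figure D1:**
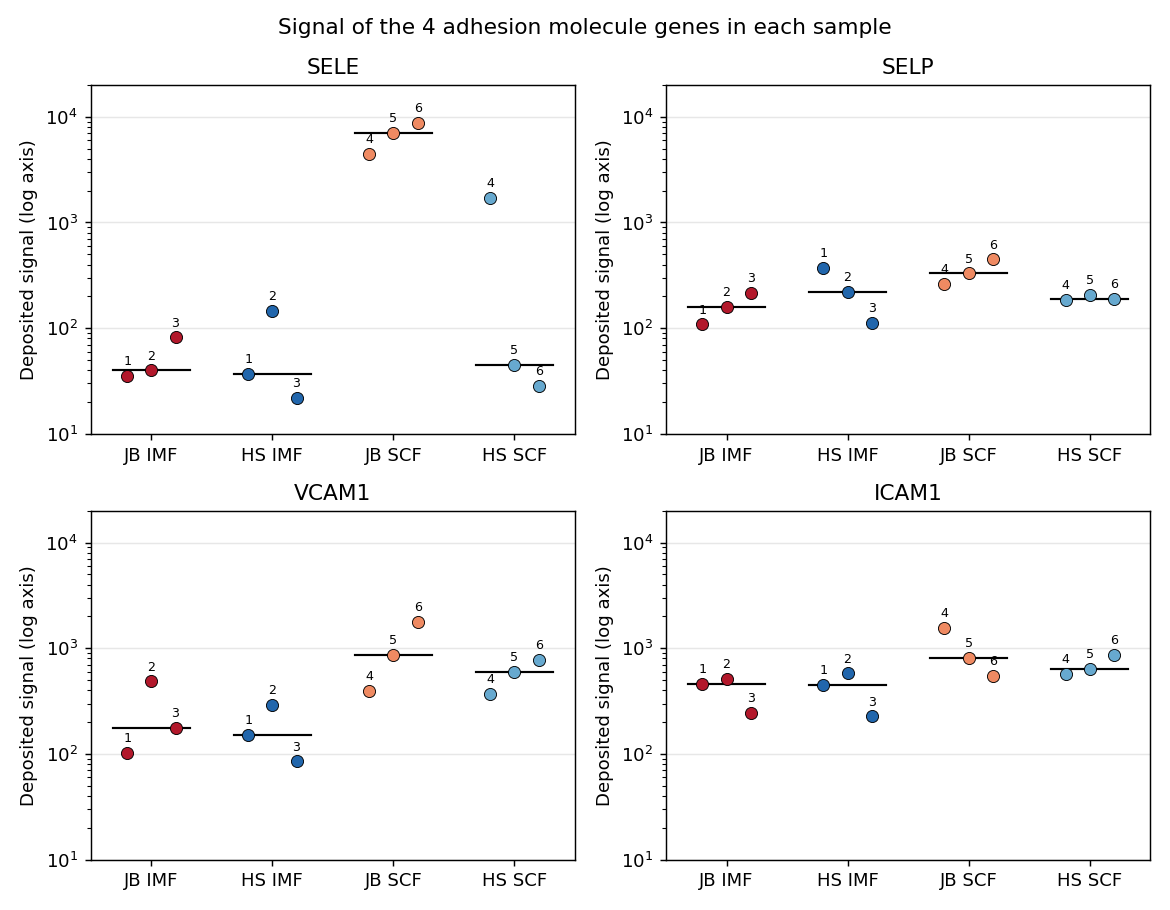
Deposited signal of SELE, SELP, VCAM1 and ICAM1 (log axes) in each of the 12 samples, grouped as JB IMF, HS IMF, JB SCF and HS SCF; each point is a sample. For SELE the 3 JB SCF samples lie between 4492 and 8802, HS SCF 4 at 1697, and the other 8 samples below 150.

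SELP covered a much narrower range. Its signal was 109, 158 and 216 in JB IMF and 370.3, 222 and 112 in HS IMF. In SCF it was 261, 329.7 and 446 in JB, against 185, 206 and 189.7 in HS. The breeds overlapped in IMF, whereas in SCF every JB sample was above every HS sample. The 3 HS SCF samples were almost alike, including HS SCF 4, the sample with the bright SELE. On the normalized log2 scale SELP averaged 7.35 ± 0.41 in JB IMF, 8.08 ± 0.43 in HS IMF, 8.33 ± 0.43 in JB SCF and 7.68 ± 0.040 in HS SCF (SD, n = 3 each). In the order JB SCF, HS IMF, HS SCF and JB IMF, the ranges of mean ± SD of neighbours overlapped.

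VCAM1 was brighter in SCF than in IMF in most samples of both breeds. Its signal was 103, 485 and 176 in JB IMF and 151, 293 and 85.0 in HS IMF. In SCF it was 392, 859 and 1759 in JB, against 370.1, 598 and 773 in HS. The single IMF sample that reached into the SCF range was JB IMF 2, and the breeds overlapped in both depots. On the normalized log2 scale VCAM1 averaged 7.75 ± 1.07 in JB IMF, 7.66 ± 0.66 in HS IMF, 9.60 ± 1.11 in JB SCF and 9.11 ± 0.47 in HS SCF (SD, n = 3 each). In the order JB SCF, HS SCF, JB IMF and HS IMF, the ranges of mean ± SD of neighbours overlapped, with the largest step between HS SCF and JB IMF.

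ICAM1 signals spanned 227 to 1550.4 over the 12 samples. Its signal was 459, 517 and 243 in JB IMF and 452, 579 and 227 in HS IMF. In SCF it was 1550.4, 804 and 548 in JB, against 574, 632 and 857 in HS. In JB the depots did not overlap, while in HS the highest IMF sample lay just above the lowest SCF sample. On the normalized log2 scale ICAM1 averaged 8.56 ± 0.59 in JB IMF, 8.95 ± 0.31 in HS IMF, 9.67 ± 0.71 in JB SCF and 9.39 ± 0.28 in HS SCF (SD, n = 3 each). In the order JB SCF, HS SCF, HS IMF and JB IMF, the ranges of mean ± SD of neighbours overlapped.

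The depots were compared over both breeds, as the series' design names it. Of the 3 members tested VCAM1 was lower in IMF, and ICAM1 and SELP did not pass. The SELE difference was -3.85 ± 0.77 on the log2 scale (SE, 6 samples per depot), 14.4-fold lower in IMF than in SCF, and it is given without a test because it uses the SCF samples on which SELE was chosen. It was -3.01 without HS SCF 4 and -4.22 without HS SCF 5. Over all samples the depots overlapped, because HS SCF 5 and 6 were as dim as IMF. In bulk tissue such as this, fewer cells of a type and less RNA per cell cannot be told apart.

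VCAM1 was lower in IMF by -1.66 ± 0.43 on the log2 scale (SE), 3.15-fold, with a limma adjusted p of 0.0297. This call was lost when any of 8 samples was left out, namely samples 1 and 3 of JB IMF, 5 and 6 of JB SCF, 1 and 3 of HS IMF, and 5 and 6 of HS SCF. The difference was then -1.65 to -1.38, with adjusted p between 0.0503 and 0.0810. The ICAM1 difference was -0.78 ± 0.27 (SE; 95% interval -1.37 to -0.19), with a limma adjusted p of 0.0877. The SELP difference was -0.29 ± 0.22 (SE; 95% interval -0.76 to 0.19), with a limma adjusted p of 0.430. Among SELP, VCAM1 and ICAM1, 1 of 3 passed, where 11.0% of the 16811 probe sets tested did so.

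Within JB, every sample of IMF was below every sample of SCF for SELE, SELP and ICAM1. The share of all probe sets without overlap is not given here, for this or any other comparison. Whether separation sets these genes apart therefore cannot be told. The SELE difference was -6.53 ± 1.09 on the log2 scale (SE), and it is given without a test because it uses the JB SCF samples on which the gene was chosen. The dimmest JB SCF sample was 54.9-fold brighter than the brightest JB IMF sample. SELP differed by -0.98 ± 0.31 (SE; limma adjusted p = 0.138), VCAM1 by -1.86 ± 0.61 (SE; limma adjusted p = 0.161) and ICAM1 by -1.11 ± 0.38 (SE; limma adjusted p = 0.189). None of these 3 passed, where 3.07% of all probe sets did, although the unadjusted p was below 0.05 for each of the 3. Without JB IMF 2, the brightest IMF sample for VCAM1, the VCAM1 difference was -2.45 and its limma adjusted p 0.0427.

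Within HS, SELE differed between IMF and SCF by -1.17 ± 1.09 (SE), given without a test, and without HS SCF 4 the sign turned, to 0.53. VCAM1 was the member with non-overlapping depots here, at -1.45 ± 0.61 (SE; limma adjusted p = 0.195). ICAM1 differed by -0.44 ± 0.38 (SE; limma adjusted p = 0.517) and SELP by 0.41 ± 0.31 (SE; limma adjusted p = 0.451). None of these 3 passed, where 3.32% of all probe sets did, and VCAM1 alone had an unadjusted p below 0.05. SELP was the member whose difference had opposite signs in the 2 breeds, -0.98 in JB and 0.41 in HS, and the difference between them was not tested.

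**Figure D2:**
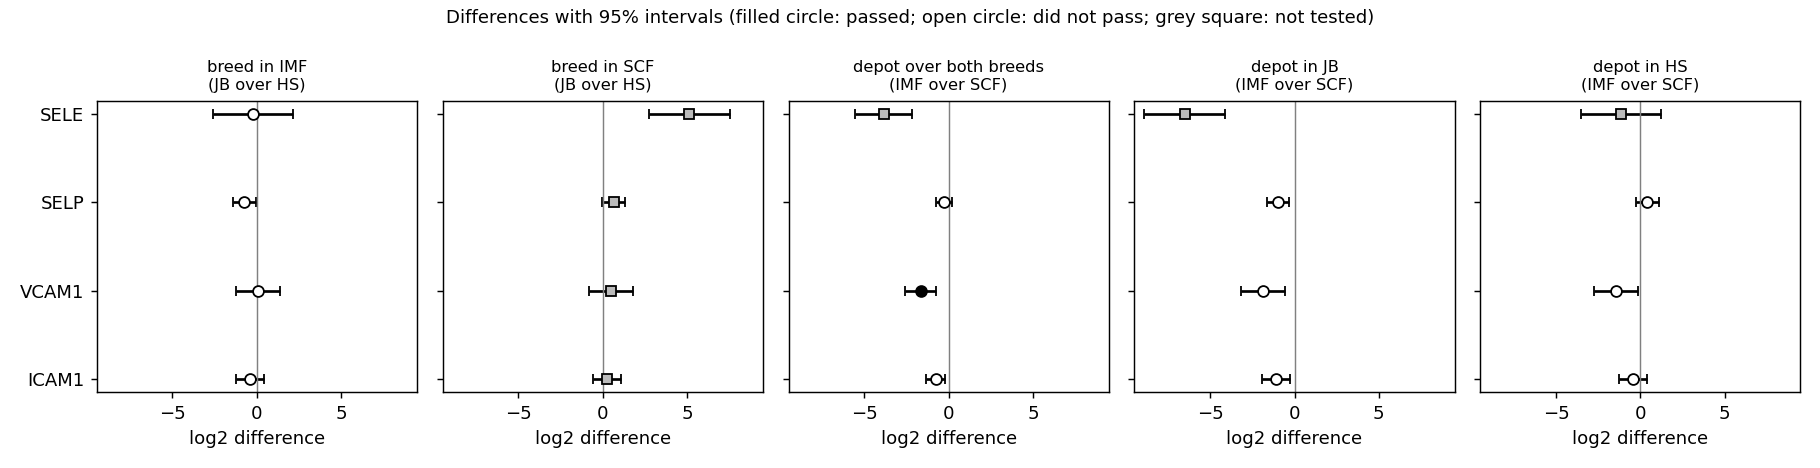
Log2 differences of the 4 genes with 95% intervals (horizontal axis, log2 of the ratio) in the 5 comparisons; points right of 0 are higher in JB or in IMF, filled circles passed, open circles did not, and grey squares were not tested. The SELE difference is 5.15 between the breeds in SCF and -3.85 between the depots over both breeds, and the intervals of the other genes are narrower. The intervals of the grey squares do not serve as a test, because the choice of genes drew on these SCF samples.

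Between the breeds in IMF, the 4 genes did not pass. The difference, JB over HS, was -0.20 ± 1.09 for SELE (SE; 95% interval -2.59 to 2.18; limma adjusted p = 0.948). This SE comes from the spread shared over the 4 groups. For SELE, HS SCF held 83.1% of the within-group squares, so the SE and p do not measure the scatter of the IMF samples alone. The difference was -0.73 ± 0.31 for SELP (SE; 95% interval -1.40 to -0.064; limma adjusted p = 0.485). For VCAM1 it was 0.087 ± 0.61 (SE; 95% interval -1.23 to 1.41; limma adjusted p = 0.960), and for ICAM1 -0.39 ± 0.38 (SE; 95% interval -1.23 to 0.44; limma adjusted p = 0.698). The unadjusted limma p was below 0.05 for SELP alone, at 0.0343. Among all probe sets 0.0238% passed in this comparison, and the breeds overlapped in IMF for each member. The sign for SELE turned without HS IMF 2, to 0.44, and the sign for VCAM1 turned without JB IMF 2, HS IMF 1 or HS IMF 3, to as low as -0.50.

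Between the breeds in SCF, all JB samples were above all HS samples for SELE and SELP, and the breeds overlapped for VCAM1 and ICAM1. The SELE difference was 5.15 ± 1.09 on the log2 scale (SE), 35.5-fold, and its size is no test, since SELE was chosen on it. Even the dimmest JB sample was 2.65-fold brighter than HS SCF 4. The difference was 6.87 when HS SCF 4 was left out, 4.43 when HS SCF 5 was and 4.17 when HS SCF 6 was. For SELP the difference was 0.65 ± 0.31 (SE), or 1.57-fold. For VCAM1 it was 0.49 ± 0.61 (SE), turning to -0.059 without JB SCF 6, and for ICAM1 it was 0.28 ± 0.38 (SE), turning to -0.10 without JB SCF 4. Of all probe sets 0.00595% passed in this comparison. The larger breed difference of SELE in SCF than in IMF was not tested, since SELE was chosen for its values in SCF.

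The 4 genes did not share 1 pattern over the 12 samples. Among their 6 pairs, Pearson's r of the normalized log2 values was highest for SELE with VCAM1, at 0.58, and lowest for SELP with ICAM1, at 0.14. Both depots are pooled in these values, which therefore share the depot difference. After each group's mean was taken away, r was -0.0040 for SELE with VCAM1 and -0.60 for SELP with ICAM1. SELE and SELP had an r of 0.56 before and 0.21 after that step.

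The genes whose profiles were most like that of SELE, among 7804 genes ranked by Pearson's r over the 12 samples, were OSMR (r = 0.87), VAV1 (0.85), TLR4 (0.84), IL6 (0.82) and F13A1 (0.82). OSMR is a receptor subunit for the cytokine oncostatin M, VAV1 a signalling protein of blood cells, TLR4 the receptor for bacterial lipopolysaccharide, IL6 a cytokine and F13A1 a coagulation factor subunit made by macrophages. IL6 had signals of 1014 to 1217 in JB SCF, against 94.0 to 157 in HS SCF. In HS SCF 4, whose SELE was bright, IL6 was 94.0, the lowest of the HS SCF samples. OSMR was 867 in that sample and 875 and 935 in the other HS SCF samples, so it did not follow the split either. F13A1 did within HS SCF, at 2652 in HS SCF 4, against 378 and 195 in HS SCF 5 and 6. In JB SCF, where SELE was brighter than in HS SCF 4, F13A1 was lower than there, at 480, 1588 and 1712.

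When only deviations from the group means were ranked, the genes most like SELE were KEAP1, a sensor of oxidative stress, CUEDC1 and the transcription factor gene ATF7, each with r = 0.99. Without HS SCF 4, the sample with the widest deviation of SELE, r was 0.98, 0.97 and 0.98. The group means still included HS SCF 4 and so shaped the deviations of HS SCF 5 and 6. These r therefore cannot tell whether the likeness holds without that sample. KEAP1 was 3935 in HS SCF 4, against 971 and 1005 in HS SCF 5 and 6. Among the JB SCF samples, in which SELE was brightest, KEAP1 was 967 to 1281, so that it did not follow SELE across groups.

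The profiles most like VCAM1 were those of DOK2 (r = 0.94), PGAP6 (0.93), TYROBP (0.93), CNIH1 (0.93) and FUCA1 (0.92). TYROBP encodes an adaptor of myeloid and natural killer cell receptors, DOK2 an adaptor of blood cells and FUCA1 a lysosomal fucosidase. TYROBP signals were 141 to 443 in JB IMF and 84.2 to 169 in HS IMF, and in SCF they were 489 to 1124 in JB, against 337 to 957 in HS. Its brightest IMF sample was JB IMF 2, as for VCAM1. By deviations from group means, CNIH1 (r = 0.93), TSPAN15 (0.91) and VPS41 (0.89) were most like VCAM1.

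ICAM1 was most like CCDC3 (r = 0.89), PFKL (0.89), NUP35 (0.88), LIPE (0.86) and ADM (0.86). LIPE encodes hormone-sensitive lipase of fat cells, PFKL a glycolytic enzyme and ADM the vessel-dilating peptide adrenomedullin. By deviations from group means, TMSB10 (0.93), JAK1 (0.93) and ECHDC1 (0.93) came first. SELP was most like RGS16 (0.87), LOC282255 (0.84), COPZ1 (0.81), TAP1 (0.81) and FLI1 (0.81), and by deviations most like LOC282255 (0.95), HID1 (0.95) and CDC42EP3 (0.93). FLI1 is a transcription factor of endothelial and blood cells, and TAP1 transports peptides for antigen presentation. No gene appeared among the 5 of more than 1 member.

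Other genes of leukocyte capture were read from 11 lists, which held 89 genes tested. Between the depots over both breeds, 4 of the 89 were higher in IMF and 13 were lower, 19.1% in all, where 11.0% of all probe sets passed. Their median difference was -0.23, against -0.06 over all probe sets. The count was 10 without JB IMF 1, and 11 without JB IMF 3, without JB SCF 5 or without HS SCF 6. Calls over all 16811 probe sets fell as well, from 1848 to 976, 923, 1027 and 1064 in the same order of samples. Between the breeds 0 of the 89 passed by limma in either depot. The unadjusted p was below 0.05 for 8 of them in IMF, 8.99% against 10.2% of all probe sets, and for 11 of them in SCF, 12.4% against 3.56%. Of these 11, 6 came from 1 list, the 10 further genes that cytokines induce in endothelium. The lists were chosen with earlier results of these data known, and SELE had been noticed in the SCF comparison.

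Of the 6 selectin counter-receptors tested, CD34, a sugar-bearing surface protein of endothelium and stem cells, was lower in IMF, by -0.67 (limma adjusted p = 0.0472), and the other 5 did not pass. Of the 10 enzymes that build selectin ligands, TPST1, which sulfates tyrosines, was lower at -0.92 (limma adjusted p = 0.00916), and the sialyltransferase gene ST3GAL3 was higher at 0.75 (limma adjusted p = 0.0349). Of 11 leukocyte integrins and their activators, 3 were lower and 0 higher. These were ITGB2, the beta-2 chain that pairs to bind ICAM1 (-1.93; limma adjusted p = 0.00984), its partner chain gene ITGAD (-1.55; limma adjusted p = 0.0487) and FERMT3, the kindlin of blood cells that activates integrins (-1.79; limma adjusted p = 0.00108). ITGB2 signals were 136 to 573 in JB IMF and 88.5 to 505 in HS IMF, and in SCF 818 to 1476 in JB, against 635 to 1364 in HS. The depots did not overlap for ITGB2.

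Among 11 inducing cytokines and receptors, TNFRSF1A, the main TNF receptor, was lower in IMF by -0.66 (limma adjusted p = 0.0404), and among 12 genes of the NF-kappa-B pathway, IKBKB, a kinase that releases NF-kappa-B, was lower by -0.77 (limma adjusted p = 0.0199). The other genes of both lists did not pass. Among 10 further genes that cytokines induce in endothelium, 6 were lower in IMF and 0 higher, with a median of -1.14. They included IL6 at -2.30 (limma adjusted p = 0.000400) and the neutrophil-attracting chemokine genes GRO1 at -2.79 (limma adjusted p = 0.000581), CXCL3 at -1.59 (limma adjusted p = 0.000792) and CXCL2 at -2.06 (limma adjusted p = 0.00227). In SCF between the breeds the IL6 difference was 2.79 (limma adjusted p = 0.155) and that of CXCL2 was 2.14 (limma adjusted p = 0.618), while GRO1 had -0.17 (limma adjusted p = 1.00).

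Among 4 endothelial brakes on activation, NOS3, the nitric oxide synthase of endothelium, was higher in IMF by 1.08 (limma adjusted p = 0.0110). NOS3 signals were 90.3 to 120 in JB IMF and 51.7 to 166 in HS IMF, and in SCF 45.4 to 74.3 in JB, against 16.1 to 39.4 in HS. Among 9 cytoplasmic anchors of ICAM1 and VCAM1, the actin-binding proteins FLNA (1.60; limma adjusted p = 0.000884) and ACTN1 (2.14-fold; limma adjusted p = 0.0350) were higher in IMF, and the other 7 did not pass. Muscle cells also make FLNA and ACTN1. Smooth muscle and pericyte markers were higher in IMF for 4 of 5 genes, with summed signals of 10243 to 53479 in IMF, against 2174 to 5767 in SCF, and their part in the result was not tested. The lists of other immunoglobulin-type molecules (10 genes tested), Weibel-Palade body genes (4) and sheddases (2) had no gene past the threshold. Their smallest p values belonged to MCAM at -0.62 (limma adjusted p = 0.0513), RAB3D at -0.41 (limma adjusted p = 0.164) and TIMP3 at -0.62 (limma adjusted p = 0.196). Between the breeds in IMF the smallest p values of these lists belonged to MADCAM1 at -0.74 (limma adjusted p = 0.485), RAB27A at 0.44 (limma adjusted p = 0.674) and ADAM10 at -0.39 (limma adjusted p = 0.734).

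**Figure D3:**
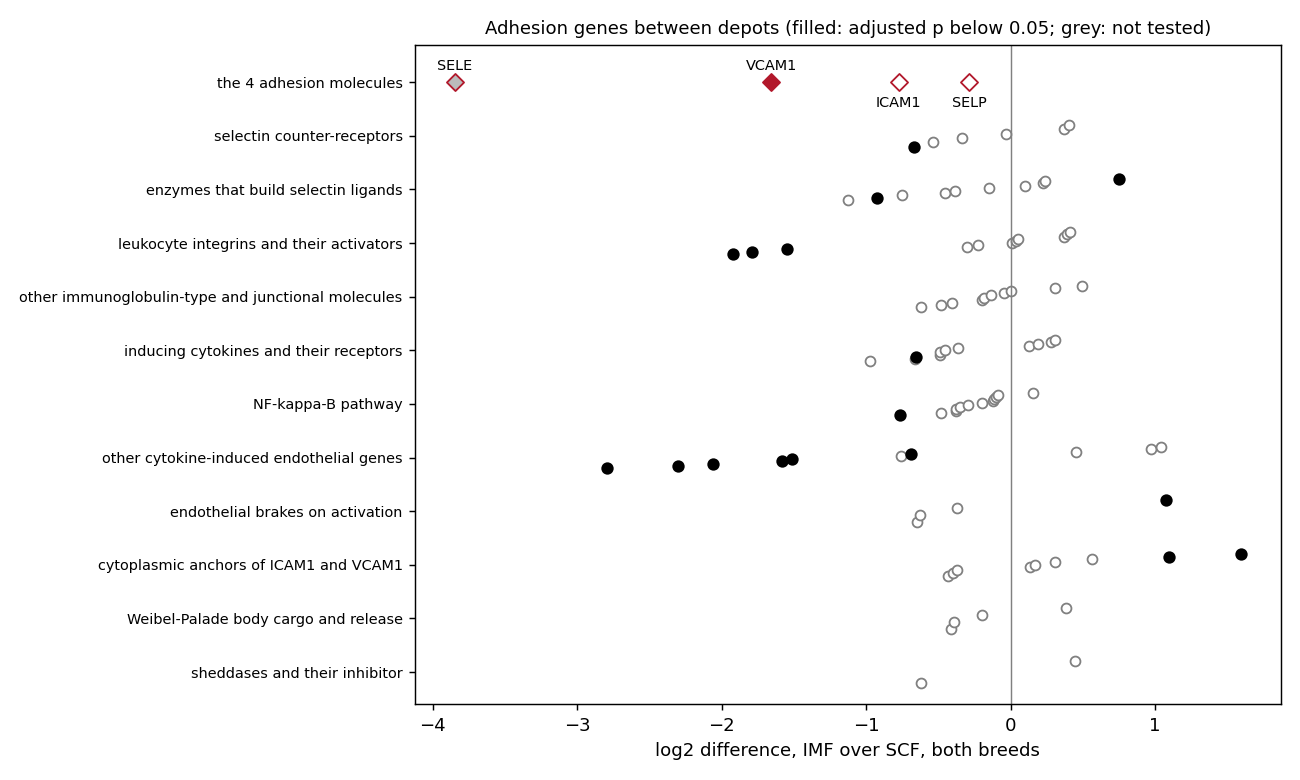
Log2 difference between IMF and SCF over both breeds for each tested gene of the 11 leukocyte capture lists and for the 4 adhesion molecules (diamonds; horizontal axis, log2 of the ratio; each point a gene, filled where its adjusted p was below 0.05, grey for SELE, which was not tested). Of the 89 list genes 13 passed below 0 and 4 above, and the genes that cytokines induce in endothelium reach -2.79.

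Markers of the cell types that could carry these transcripts moved as follows. For the depots over both breeds, 1 of 12 endothelial markers passed, ROBO4 at -0.91, with a median of -0.16. Summed endothelial signals were 9275 to 14569 in JB IMF and 6284 to 15391 in HS IMF, and in SCF 13104 to 16400 in JB, against 10597 to 17767 in HS. All 5 pan-leukocyte markers and 5 of 6 macrophage markers were lower in IMF, with medians of -1.48 and -1.89. Summed macrophage signals were 1410 to 4464 in JB IMF and 1597 to 2167 in HS IMF, and in SCF 9641 to 19416 in JB, against 7276 to 10296 in HS. Of 9 stromal markers 3 passed, all lower, with 8 of 9 below 0 and a median of -0.64, and summed stromal signals were 23043 to 26424 in IMF, against 23883 to 51691 in SCF. Of 3 neutrophil markers 2 passed, both lower, with a median of -2.13. The 3 lymphocyte markers did not pass, and their median was -0.12. The 2 platelet markers measured did not pass either, with 1 above 0 and 1 below. All 9 skeletal muscle markers lay above 0, with 6 passed and a median of 6.11. All 6 adipocyte markers lay below 0, with 0 passed and a median of -0.86. VCAM1, ITGB2 and the chemokine genes were thus measured as lower in the depot in which pan-leukocyte, macrophage and some neutrophil and stromal markers were also lower. Skeletal muscle markers were higher in that depot. The part of all these cells in the results was not tested.

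Between the breeds in SCF, 6 of 12 endothelial markers lay above 0, with a median difference of 0.016. They ranged from -0.66 for ROBO4 to 0.45 for TIE1. SELE differed by 5.15 in the same samples, and the part of endothelial cells in this difference was not tested. All 5 pan-leukocyte markers lay above 0, with a median of 0.51, and so did all 9 immediate early genes, which respond within minutes to stress or handling, with a median of 1.06 against 0.0029 over all probe sets. The 3 neutrophil and the 2 platelet markers also lay above 0, with medians of 0.81 and 0.50. Of the macrophage markers 4 of 6 lay above 0, and the 3 lymphocyte markers lay below 0. None of these markers passed the threshold in limma. The unadjusted p was below 0.05 for 1 endothelial, 1 pan-leukocyte, 1 macrophage and 5 immediate early genes. Summed signals of the immediate early genes were 38627 to 53656 in JB SCF, against 19000 to 33545 in HS SCF, without overlap. Their part in the SELE result was not tested. No endothelial, leukocyte, macrophage or immediate early marker was listed at 0 in any sample.

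**Figure D4:**
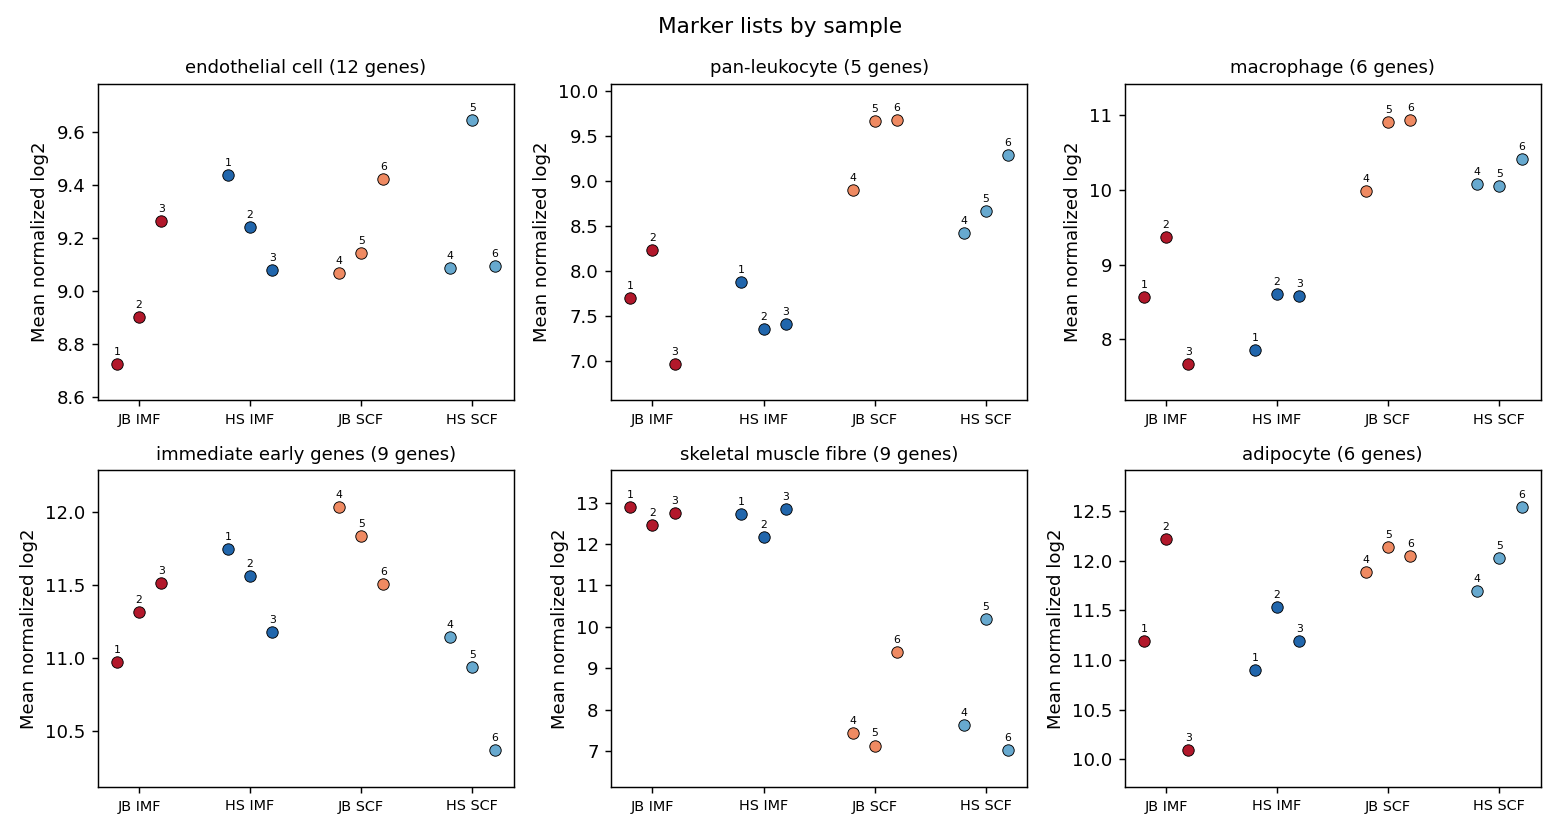
Mean normalized log2 signal of marker gene lists in each of the 12 samples, by group. Leukocyte and macrophage lists are lower in IMF than in SCF, the skeletal muscle fibre list is higher in IMF, the immediate early list is higher in JB SCF than in HS SCF, and the endothelial list differs little between the breeds in SCF.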

How the data were processed

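The deposited values were linear signal intensities of 24128 probe sets in 12 samples. Per the submitters' processing notes, GCOS 1.1.1 and Affymetrix Expression Console 1.1 were used; how probes were summarized and arrays scaled is not given in the sources used here. Intensities were turned into log2(signal + 16) and quantile normalized, 112 control probe sets and the 30% dimmest of the rest were left out, and limma 3.58.1 (R 4.3.3) was fitted with 4 group means and 8 residual degrees of freedom. The threshold was 0.05 for p-values adjusted by Benjamini-Hochberg over all 16811 probe sets. The log scale understates changes of dim genes, and 3 arrays per group limit the precision. Symbols came from the platform annotation, with 13263 updated through the Entrez identifier. The 4 genes and all lists were chosen with earlier results of these data known. SELE was therefore left out of counts and tests in every comparison with an SCF group, and no member was tested between the breeds in SCF. The test of SELE between the breeds in IMF still drew its spread estimate from all 4 groups, SCF included. The plan had counted SELE between depots.

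Every probe set of the 4 genes was named in every comparison. Also named were the 5 genes with the highest r over the samples and the 3 with the highest r of deviations from group means, up to 4 genes per list with the smallest p that passed, and the gene with the smallest p where none passed. Genes shown for signals or markers beyond these were chosen after their values were seen. Other settings were the values as deposited, median centring, pseudocounts of 1 and 64, no filter, 50% left out as dim, a trended robust variance, array weights, only the compared groups, a replicate block and each sample left out. Leaving out both HS IMF 3 and HS SCF 4, and every setting for the 89 list genes, were chosen after seeing the data. The procedure was tested on simulated data. Figures were drawn with matplotlib 3.10.9.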

Additional observations from a re-analysis of the deposited data

How the results depend on the processing

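No setting run gave a pass among the 4 genes for breed in IMF, or among SELP, VCAM1 and ICAM1 for depot within HS. Between the depots over both breeds 1 of these 3 passed, VCAM1, and 0 to 1 did when each sample was left out in turn. The untested SELE difference there was -4.32 to -3.01 over single samples left out, and -2.79 without both HS IMF 3 and HS SCF 4. For depot within JB 0 of the 3 passed, 3 did with array weights, and 0 to 1 with single samples left out. Array weights also raised the calls over all 16811 probe sets in this comparison, to 4340 from 516. Of the 89 list genes, 10 to 19 passed between depots with single samples left out, against 17. Over all probe sets 923 to 2338 did so, against 1848. The breed difference of SELE in SCF was 4.17 to 6.87 over single samples left out. Signs turned for SELE in IMF between breeds (-0.63 to 0.44 over single samples left out) and between the depots within HS (-2.14 to 0.53; 0.30 with array weights; 0.97 without both HS IMF 3 and HS SCF 4). They also turned for VCAM1 in IMF (-0.50 to 0.54; -0.70 with array weights; -0.14 without both), VCAM1 in SCF (-0.059 to 1.05) and ICAM1 in SCF (-0.10 to 0.59); the cause was not tested. Same-numbered samples of the breeds did not deviate together (r of -0.28 to 0.12). These deviations are from means of 3 samples each and cannot exclude that the numbers pair them. With the replicate block, 0 of the 4 genes passed in IMF, and SELE in SCF stayed at 5.15. In the values as deposited, 30.5% of depot calls over all probe sets were higher in IMF, against 42.4%, and within HS 37.0%, against 54.3%; the median breed difference in IMF was 0.38, against 0.096. The comparison over both breeds already uses all groups, so a fit of the compared groups alone is no other setting there.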

Other observations

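CUEDC1, named above for its likeness to SELE within groups, had a signal of 2275 in HS SCF 4, against 321 and 319.9 in HS SCF 5 and 6, and 240 to 371 in JB SCF. ATF7 had 249 in HS SCF 4, against 81.5 and 69.1 in HS SCF 5 and 6, and 86.1 to 119 in JB SCF.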
